A study of Arabidopsis thaliana with 24 samples.

Results

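The genes described here are the Arabidopsis thaliana genes that make, methylate and bind the messenger RNA cap, together with DXO1 itself. They are 9 loci taken by their gene identifiers, of 37184 loci counted in every library. They are DXO1 (AT4G17620), the cap methyltransferases RNMT1 (AT3G20650) and RNMT2 (AT3G52210), the capping enzymes AT3G09100 and AT5G01290, the nuclear cap-binding proteins CBP80 (AT2G13540) and CBP20 (AT5G44200), and the cytoplasmic cap-binding proteins eIF4E (AT4G18040) and eIFiso4E (AT5G35620). RNA was taken from plants labelled as seedlings 21 days old, grown on soil with 16 h of light and 8 h of dark, and counted by 3′ RNA-seq, in which reads start from the poly(A) tail and fall near the transcript end. There were 6 genotypes with 4 libraries each, 24 in all. In 4 of them a transgene under the 35S promoter, a viral promoter active in most plant cells, had been put into the mutant dxo1-2. The line comp-wt carries 35S::DXO1, which encodes the unaltered protein. The line comp-mut carries 35S::DXO1(E394A/D396A), the full-length protein with substitutions in the catalytic centre. The line comp-wt-dN carries 35S::DXO1(ΔN194), in which the N-terminal residues up to that position are missing. The line comp-mut-dN carries 35S::DXO1(ΔN194/E394A/D396A), with both changes. The remaining genotypes are dxo1-2 with no transgene and Col-0, the wild type. Every transgenic line therefore carries the dxo1-2 allele as well. The lesion of dxo1-2, the number of independent lines behind each construct and whether the 4 libraries came from separate plants or pools are not given in the sources used here, so p-values measure the spread between libraries, which may be technical.

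A cap is built on the nascent transcript in steps. A capping enzyme removes a phosphate from the 5′ end and adds a guanosine, and a guanine-N7 methyltransferase of the RNMT type then methylates that guanosine. In the nucleus the finished cap is held by a complex of CBP20, which contacts the cap, and CBP80, which stabilises CBP20; in plants this complex takes part in splicing and in microRNA production with SERRATE. In the cytoplasm eIF4E binds the cap and recruits the scaffold eIF4G for translation, and plants have a parallel pair, eIFiso4E with eIFiso4G. DXO1 is the plant member of the DXO/Rai1 enzymes, which process faulty or unusual RNA 5′ ends. The plant protein has an N-terminal extension of its own and is known to bind and activate RNMT1.

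The changes carried by the transgenes were located on the RefSeq gene model of DXO1 in assembly TAIR10.1, whose nuclear chromosomes are those of TAIR10, the build named in the submitters' processing notes. DXO1 lies at chr4:9821874-9825039 on the plus strand, has 13 exons and encodes 544 residues. The model has E at position 394 and D at position 396, counted from the initiator methionine, which are the residues that the labels give as E394A and D396A. Both lie in exon 8. The lines below show these codons with their neighbours (chr4:9823940-9823966, codons 391 to 399) and the end of the removed part in exon 2 (chr4:9822654-9822683, codons 190 to 199). Capitals mark codons 394 and 396 in the upper line and the last codon removed in the lower line.
DXO1 catalytic codons: atgggtgctGAAatgGACtgctgtgat
DXO1 truncation boundary: aattatcagcgtGATgaacgttttgtttct
The truncation removes 35.7% of the protein and leaves 350 residues, and it does not touch the catalytic codons. The annotated 3′ UTR of DXO1 is 180 bases long.

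Total counts ran from 1270033 to 3490594 per library. Genes of the chloroplast and mitochondrial genomes took between 3.43% and 7.11% of counts. Summed markers of leaf cells (5 photosynthesis genes) were high in every library. They reached 42570 to 47050 CPM (read counts over the TMM-adjusted library size) in comp-wt-dN, 49210 to 57300 CPM in comp-mut-dN, 65090 to 68040 CPM in comp-wt, 66810 to 82960 CPM in comp-mut, 50290 to 55230 CPM in dxo1-2 and 72640 to 86420 CPM in Col-0. The leaf sum was thus lower in dxo1-2 and the truncated lines than in every other library. Taken singly, the leaf genes LHCA1 and LHCA3 showed this split without overlap, while CAB1 and RBCS1A overlapped across it. RCA did not follow it, averaging 1815 CPM in comp-wt-dN, 1373 CPM in comp-wt and 1473 CPM in comp-mut. DXO1, eIF4E and eIFiso4E also show the split below, and the part of the leaf sum in those results was not tested. Root markers were close to absent from these libraries labelled as seedlings. COBL9, EXPA7 and RHD6, which mark root hairs, had 0 counts in all 24, and the 5 root genes summed to at most 1.87 CPM. The 4 flower genes summed to at most 4.58 CPM, and the petal and stamen genes AP3 and PI had a count in 1 library each. The other flower genes, AG and SEP3, had 62 counts over 19 libraries and 46 counts over 17 libraries. The 4 seed marker genes summed to 23.5 to 58.8 CPM in comp-wt-dN, 4.17 to 24.7 CPM in comp-mut-dN, 2.73 to 8.96 CPM in comp-wt, 15.4 to 62.9 CPM in comp-mut, 35.4 to 157 CPM in dxo1-2 and 61.0 to 90.2 CPM in Col-0. In bulk RNA, fewer cells of a type and less RNA per cell cannot be told apart.

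Most calls among the 9 genes were of DXO1, eIF4E and eIFiso4E, each called in 6 of 12 comparisons, while CBP20 and AT3G09100 were called in 1 each and the other 4 genes in none. In dxo1-2 DXO1 fell and both cytoplasmic cap-binding genes rose. For these 3 genes the full-length lines differed from dxo1-2 and were not called against Col-0, and the truncated lines differed from Col-0 and were not called against dxo1-2. All 9 genes passed the filter on low counts with all libraries in the fit. A gene was called at an adjusted p under 0.05 in edgeR's quasi-likelihood test, adjusted over 13592 tested genes. In dxo1-2 against Col-0, 2 of the 9 rose and 1 fell, where 22.6% of all tested genes were called. Against dxo1-2, 1 of 9 rose and 2 fell in comp-wt (30.6% of all genes called), and 1 rose and 3 fell in comp-mut (25.5%). None of the 9 was called in comp-wt-dN against dxo1-2 (3.03%) or in comp-mut-dN against dxo1-2 (0.795%). At an unadjusted p under 0.05, 1 and 0 of the 9 passed in these comparisons. Against Col-0, none of the 9 was called in comp-wt (1.03%) or comp-mut (5.36%), with 0 and 2 at an unadjusted p under 0.05. DESeq2 also called 0 in each of these 4 comparisons, but did not give every gene an adjusted p. It gave one to 6 of the 9 in comp-wt-dN against dxo1-2, and to 8 in comp-wt and in comp-mut against Col-0. Genes without an adjusted p from DESeq2 are counted as not called by it, here and below. In contrast, 2 rose and 1 fell against Col-0 in both comp-wt-dN (29.2%) and comp-mut-dN (28.3%). These comparisons share the dxo1-2 or the Col-0 libraries, so they are not independent.

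Among the 4 transgenic lines, DXO1, eIF4E, eIFiso4E and AT3G09100 differed between truncated and full-length lines, and none of the 9 was called with substitution. Both truncated lines also had DXO1 counts near those of dxo1-2. The missing residues, low DXO1 counts and other differences between lines therefore cannot be told apart here. In the truncated against the full-length lines 2 of 9 rose and 2 fell, with 43% of all genes called. In the substituted against the active lines edgeR called 0 of 9, with 9.88% of all genes called. DESeq2 also called 0 and gave an adjusted p to 8 of the 9. By edgeR 1 of the 9, DXO1, had an unadjusted p under 0.05. The interaction of substitution and truncation also gave 0 of 9, with 1.44% of all genes called, by both tools, and 1 at an unadjusted p under 0.05, the capping enzyme AT5G01290. Asked whether any of the 6 genotypes differed, the test called 3 of 9, DXO1, eIF4E and eIFiso4E, against 47.4% of all genes. DESeq2 called 4 of 9 there. Set against the shares over all genes, 3 or 4 of 9 called is no result about the 9 as a list. The median log2 fold change of the 9 was -0.20 in dxo1-2 against Col-0, with 0.02 over all tested genes, and 0.03 in truncated against full-length lines, with -0.02 over all genes.

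**Figure D1:**
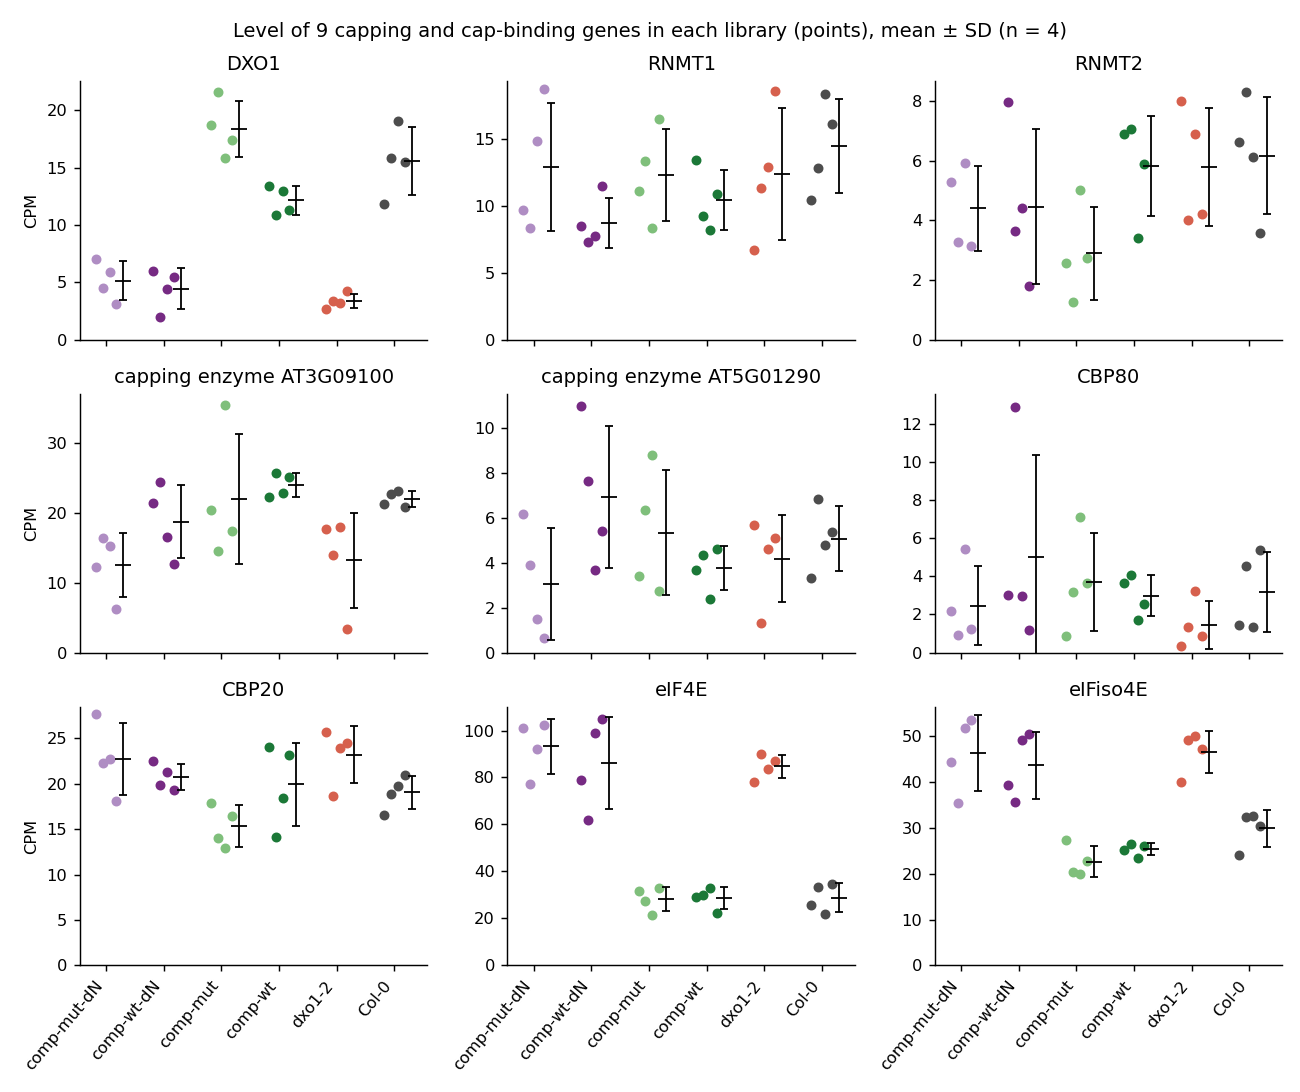
Level of each of the 9 genes in CPM (vertical axes, starting at 0) in every library, by genotype, with the mean and SD of 4 libraries at the right of each column of points; the lower SD bar of CBP80 in comp-wt-dN runs below 0 and is not drawn there. DXO1 is low and eIF4E and eIFiso4E are high in comp-wt-dN, comp-mut-dN and dxo1-2, with no overlap with comp-wt, comp-mut and Col-0. The other 6 genes overlap between genotypes that are neighbours in the order of their levels. Between genotypes further apart, AT3G09100 and CBP20 have some pairs with no overlap. Of all tested genes 43% were called in truncated against full-length lines, and overlap was not counted over all genes.

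DXO1, the gene altered in the mutant, had the largest fall of the 9. It had 2.67, 3.33, 3.22 and 4.23 CPM in the dxo1-2 libraries, against 11.8, 15.9, 19.1 and 15.5 CPM in Col-0. The groups did not overlap, and each dxo1-2 library had only 5 to 8 DXO1 counts. The log2 fold change was -2.23 ± 0.31 (SE), a ratio of 0.213 with a 95% interval of 0.136 to 0.332 (edgeR adjusted p = 5.70e-06). Some tags were still counted for DXO1 in dxo1-2, and the counts do not describe the lesion. A tag near the 3′ end lies outside the N-terminal part that the truncated transgenes lack, so the DXO1 count does not check the truncation.

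The full-length lines, although driven by the 35S promoter, had DXO1 levels near that of Col-0. The line comp-wt had 13.4, 10.9, 13.0 and 11.3 CPM and comp-mut had 18.8, 21.6, 15.9 and 17.4 CPM. Against dxo1-2 the log2 fold change was 1.88 ± 0.31 in comp-wt (adjusted p = 3.37e-05) and 2.48 ± 0.31 in comp-mut (adjusted p = 9.93e-07). Against Col-0 neither was called; the ratio was 0.785 in comp-wt (95% interval 0.544 to 1.13) and 1.19 in comp-mut (0.817 to 1.72).

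The truncated lines were near the mutant. DXO1 had 5.99, 1.98, 4.41 and 5.42 CPM in comp-wt-dN and 7.04, 4.46, 5.93 and 3.12 CPM in comp-mut-dN, 5 to 16 counts per library. These values overlap those of dxo1-2, and the ratio to dxo1-2 was 1.32 (95% interval 0.803 to 2.15) and 1.59 (0.981 to 2.57), neither called. Against Col-0 both were lower, with log2 fold changes of -1.84 (adjusted p = 2.17e-05) and -1.57 (adjusted p = 0.000121). DXO1 was lower in truncated than in full-length lines and fell by 1.65 on the log2 scale (SE 0.20, adjusted p = 1.68e-07). Whether the transgene messages end in the annotated 3′ UTR of DXO1 or in a vector terminator is not given in the sources used here, so these counts may not include all transgene RNA.

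The order of the genotypes in DXO1 level, from low to high, was dxo1-2, comp-wt-dN, comp-mut-dN, comp-wt, Col-0 and comp-mut. Only the step between comp-mut-dN and comp-wt separated neighbours whose libraries did not overlap. Substituted lines had a DXO1 ratio of 1.35 to active lines (95% interval 1.01 to 1.80, adjusted p = 0.163), which did not pass.

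eIF4E, the cap-binding subunit that starts cap-dependent translation, had the largest rise of the 9. It had 78.2, 89.9, 83.7 and 87.1 CPM in dxo1-2, against 25.5, 33.3, 21.8 and 34.6 CPM in Col-0. Every dxo1-2 library was above every Col-0 library. The log2 fold change was 1.55 ± 0.20 (SE), a ratio of 2.94 with a 95% interval of 2.22 to 3.88 (adjusted p = 1.28e-06).

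Both full-length lines had eIF4E levels that overlapped Col-0. The values were 29.3, 29.9, 33.1 and 22.3 CPM in comp-wt and 31.6, 27.3, 21.3 and 33.0 CPM in comp-mut. Against dxo1-2 eIF4E fell by 1.56 on the log2 scale in comp-wt (adjusted p = 4.99e-07) and by 1.60 in comp-mut (adjusted p = 8.54e-07). The ratio to Col-0 was 0.998 in comp-wt (95% interval 0.751 to 1.33) and 0.968 in comp-mut (0.719 to 1.30).

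Both truncated lines had eIF4E levels that overlapped dxo1-2. eIF4E had 78.8, 61.8, 99.2 and 105 CPM in comp-wt-dN and 101, 77.4, 92.0 and 102 CPM in comp-mut-dN. The ratio to dxo1-2 was 1.02 (95% interval 0.784 to 1.32) and 1.10 (0.849 to 1.42). Against Col-0 the log2 fold change was 1.58 (adjusted p = 5.36e-07) and 1.69 (adjusted p = 1.91e-07). In truncated against full-length lines eIF4E rose by 1.66 ± 0.14 (SE) on the log2 scale (adjusted p = 1.36e-10), in 8 libraries against 8 with no overlap. Substituted and active lines were not called different, and the ratio of substituted to active lines was 1.02 with a 95% interval of 0.845 to 1.24.

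eIFiso4E, the cap-binding subunit of the plant-specific eIFiso4F complex, moved the same way by a smaller amount. It had 40.1, 49.3, 50.1 and 47.4 CPM in dxo1-2, against 24.1, 32.5, 32.7 and 30.5 CPM in Col-0, with no overlap. The log2 fold change was 0.64 ± 0.18 (SE), a ratio of 1.56 with a 95% interval of 1.21 to 2.01 (adjusted p = 0.00872). In the full-length lines it had 25.2, 26.6, 23.6 and 26.1 CPM in comp-wt and 27.3, 20.3, 20.0 and 22.9 CPM in comp-mut. These are the lowest levels of the 6 genotypes, below dxo1-2 by 0.88 on the log2 scale in comp-wt (adjusted p = 0.000328) and by 1.05 in comp-mut (adjusted p = 9.13e-05). Against Col-0 neither line was called, although comp-mut had a ratio of 0.753 with a 95% interval of 0.575 to 0.985 (adjusted p = 0.261).

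In the truncated lines eIFiso4E had 39.4, 35.7, 49.2 and 50.6 CPM in comp-wt-dN and 44.4, 35.4, 51.9 and 53.7 CPM in comp-mut-dN. Every one of these 8 libraries was above every Col-0 and full-length library. Against Col-0 the log2 fold change was 0.55 in comp-wt-dN (adjusted p = 0.0193) and 0.63 in comp-mut-dN (adjusted p = 0.00804). The call in comp-wt-dN ended without Col-0 replicate 1 (0.45, adjusted p = 0.0886) and without comp-wt-dN replicate 3 (0.49, adjusted p = 0.0557). The truncated lines exceeded the full-length lines in eIFiso4E by 0.91 ± 0.13 (SE) on the log2 scale (adjusted p = 1.17e-06).

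The balance within this pair shifted toward eIF4E. Of the counts of both genes, which are counts of 3′ ends and were not divided by length, eIF4E held 66.1%, 64.6%, 62.5% and 64.8% in dxo1-2, against 51.4%, 50.6%, 40.0% and 53.2% in Col-0. The share ran from 63.4% to 67.4% in comp-wt-dN and from 63.9% to 69.5% in comp-mut-dN. It ran from 46.1% to 58.4% in comp-wt and from 51.5% to 59.0% in comp-mut. Every dxo1-2 and truncated library lay above every full-length and Col-0 library, with no test run on this ratio. Exact binomial intervals at 95% spanned 29.2% to 51.6% in the lowest library, Col-0 replicate 3, and 64.2% to 74.4% in the highest, comp-mut-dN replicate 1. Whether reads were collapsed to molecules by their molecular identifiers is not given in the sources used here, and the intervals cover counting error only. The RefSeq proteins share 51.3% of 193 aligned positions. No near copy (50 bases or more at 90% identity) of the last 500 bases of any of the 9 transcripts was found elsewhere in the genome.

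**Figure D2:**
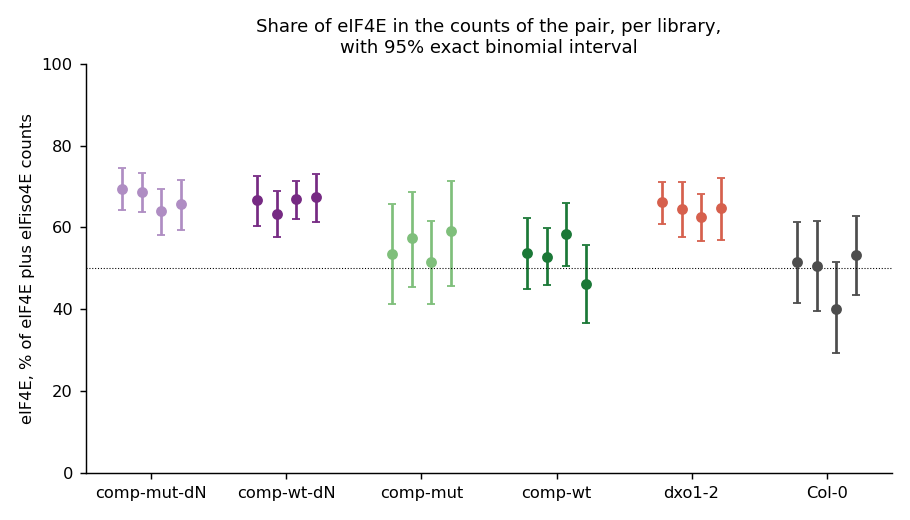
Share of eIF4E in the summed counts of eIF4E and eIFiso4E (vertical axis, percent) in each library, by genotype, with 95% exact binomial intervals as bars and a dotted line at 50%. The libraries of comp-wt-dN, comp-mut-dN and dxo1-2 lie between 62.5% and 69.5%, above all libraries of comp-wt, comp-mut and Col-0, which lie between 40.0% and 59.0%.

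The stretches of 250 bases before the annotated starts of these genes are shown because eIF4E and eIFiso4E moved together. Capitals mark site II words, TGGGCC or TGGGCT on either strand, a motif of plant genes for growth and translation; the motif was picked with the results in view. The eIF4E stretch is chr4:10018233-10018482 on the minus strand and the eIFiso4E stretch is chr5:13826445-13826694 on the minus strand, both from RefSeq TAIR10.1.
eIF4E promoter: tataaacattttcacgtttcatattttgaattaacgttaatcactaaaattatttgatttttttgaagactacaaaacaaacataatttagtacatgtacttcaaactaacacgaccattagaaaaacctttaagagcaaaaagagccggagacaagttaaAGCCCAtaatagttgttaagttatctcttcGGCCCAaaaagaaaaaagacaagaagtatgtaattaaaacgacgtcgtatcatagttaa
eIFiso4E promoter: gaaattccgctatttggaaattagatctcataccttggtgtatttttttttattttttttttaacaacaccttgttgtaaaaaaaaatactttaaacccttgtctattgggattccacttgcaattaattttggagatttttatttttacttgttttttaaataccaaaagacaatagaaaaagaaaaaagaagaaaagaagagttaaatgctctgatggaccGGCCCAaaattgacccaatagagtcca
The eIF4E stretch holds 2 site II words, 89 and 59 bases before the start, and the eIFiso4E stretch holds 1, 27 bases before it. DXO1 and RNMT1 hold 1 each and AT5G01290 holds 2, while RNMT2, AT3G09100, CBP80 and CBP20 hold none in this window. Of 27443 promoters of the same length, 19.2% hold at least 1 such word. The telo box AAACCCTA, searched on both strands, is in none of the 9 stretches and in 4.49% of all promoters. Site II words are thus present in genes that rose, in the gene that fell and in genes that were not called.

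Of the nuclear cap-binding complex, CBP20 was called once and CBP80 in no comparison. CBP20, the subunit that contacts the cap, had 25.7, 18.7, 23.9 and 24.5 CPM in dxo1-2, against 16.6, 18.9, 19.8 and 20.9 CPM in Col-0, which overlap (ratio 1.23, 95% interval 0.922 to 1.64, adjusted p = 0.323). Its single call was in comp-mut, where it had 17.9, 14.0, 12.9 and 16.5 CPM, below all dxo1-2 libraries, with a log2 fold change of -0.62 ± 0.21 (SE, adjusted p = 0.0274). That call ended when any of dxo1-2 replicates 1, 3 or 4 or comp-mut replicates 2 or 3 was left out (values from -0.61 to -0.53, adjusted p from 0.0533 to 0.0962). In truncated against full-length lines CBP20 had a ratio of 1.26 (95% interval 1.03 to 1.54, adjusted p = 0.0586). It was called as higher there with scaling by total counts alone (log2 fold change 0.42, adjusted p = 0.0204), with at least 10 counts required in every library (0.32, adjusted p = 0.0483), with the replicate number as a block (0.34, adjusted p = 0.0443) and with the main axis of spread in the fit (0.35, adjusted p = 0.0213). It was also called without comp-wt replicate 1 or 4, comp-mut replicate 1, comp-wt-dN replicate 4 or comp-mut-dN replicate 4 (0.37 to 0.38, adjusted p from 0.0348 to 0.0474). The main axis of spread was computed from these same counts with genotype means removed, so it takes up spread within genotypes by construction. Calls that need it, here and below, are therefore not separate support.

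CBP80, the larger subunit, was the most thinly counted of the 9, with 1 to 39 counts per library and 169 in all. It averaged 1.43 ± 1.26 CPM in dxo1-2 and 3.17 ± 2.09 CPM in Col-0 (SD, n = 4 each). None of 12 comparisons called it by edgeR or DESeq2, with 1 at an unadjusted p under 0.05, and in dxo1-2 against Col-0 the 95% interval of the ratio ran from 0.147 to 1.50, which holds both no change and a fall to well below the Col-0 level. In comp-wt-dN against dxo1-2 the log2 fold change was 1.86 (adjusted p = 0.173), and it was called with the main axis of spread in the fit (1.81, adjusted p = 0.0286). One library stood apart, comp-wt-dN replicate 2 with 12.9 CPM (39 counts), where the other 3 of that line had 1.21 to 2.99 CPM.

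Of the capping enzymes, AT3G09100 had the higher counts, 996 in all against 243 for AT5G01290. It had 17.7, 14.0, 17.9 and 3.38 CPM in dxo1-2, against 21.3, 22.7, 23.2 and 20.9 CPM in Col-0. All dxo1-2 libraries were below all Col-0 libraries, but the spread in dxo1-2 was wide and the change was not called (log2 fold change -0.65 ± 0.33 SE, adjusted p = 0.159). It was called when the main axis of spread within genotypes, drawn from these same counts, entered the fit (-0.70, adjusted p = 0.00828). It averaged 24.1 ± 1.7 CPM in comp-wt, 22.0 ± 9.3 in comp-mut, 18.8 ± 5.2 in comp-wt-dN and 12.6 ± 4.5 in comp-mut-dN (SD, n = 4 each). The single call was in truncated against full-length lines, where it fell by 0.58 on the log2 scale (SE 0.22, adjusted p = 0.0374), with libraries that overlap. The call ended when any of comp-wt replicates 2 or 4, comp-mut replicate 3, comp-wt-dN replicates 1, 3 or 4, or comp-mut-dN replicates 1 or 4 was left out (values from -0.59 to -0.39, adjusted p from 0.0510 to 0.157). It also ended when libraries were scaled by total counts alone (-0.49, adjusted p = 0.132).

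AT3G09100 came near a call in 2 further comparisons, both with no overlap between libraries. In comp-wt against dxo1-2 the log2 fold change was 0.78 (adjusted p = 0.0593). It was called with upper-quartile scaling (0.90, adjusted p = 0.0422), with the replicate number as a block (0.86, adjusted p = 0.0244), with the main axis of spread in the fit (0.85, adjusted p = 0.000462) and without dxo1-2 replicate 1 (0.95, adjusted p = 0.0378). In comp-mut-dN against Col-0 it was -0.77 (adjusted p = 0.0780). It was called with the block (-0.82, adjusted p = 0.0385), with the axis (-0.82, adjusted p = 0.00169) and with only the groups compared (-0.80, adjusted p = 0.0244). In comp-mut against dxo1-2 the axis also gave a call (0.64, adjusted p = 0.0171), which the fit without it did not (0.69, adjusted p = 0.124).

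AT5G01290, the other capping enzyme, was called in 0 of 12 comparisons by edgeR and DESeq2 (1 at an unadjusted p under 0.05), with 1 to 23 counts per library. It averaged 4.17 ± 1.94 CPM in dxo1-2 and 5.07 ± 1.45 CPM in Col-0, and the 95% interval of the ratio was 0.422 to 1.78. The gene overlaps AT5G01300 on the other strand. Since use of strand in counting is not given in the sources used here, reads of such overlapping genes cannot be told apart, although AT5G01300 itself had 31 counts in all, against 243 for AT5G01290. The proteins of both capping enzymes share 80.0% of 654 aligned positions. AT5G28210, which RefSeq annotates to the capping enzyme family as well, had 0 counts in all 24 libraries.

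The cap methyltransferases were called in 0 of 12 comparisons by edgeR and by DESeq2, with 1 comparison at an unadjusted p under 0.05 for RNMT1 and 2 for RNMT2. Some other settings of the edgeR fit called them, as given beside the values. RNMT1, which methylates the cap guanosine and is the enzyme that DXO1 binds, had 6.68, 11.3, 12.9 and 18.6 CPM in dxo1-2, against 10.4, 12.9, 18.4 and 16.1 CPM in Col-0. The groups overlap, and the ratio was 0.83 with a 95% interval of 0.531 to 1.29 (adjusted p = 0.595). Across the other genotypes its mean ran from 8.73 ± 1.88 CPM in comp-wt-dN to 12.9 ± 4.8 CPM in comp-mut-dN (SD, n = 4 each). The comparison nearest to a call was comp-wt-dN against Col-0, with a ratio of 0.600 (95% interval 0.383 to 0.939, adjusted p = 0.0800). It was called there with upper-quartile scaling (log2 fold change -0.80, adjusted p = 0.0444) and with the main axis of spread within genotypes in the fit (-0.73, adjusted p = 0.0189). The highest mean was in Col-0, at 14.5 ± 3.5 CPM, and every neighbouring pair of genotypes in the order of levels overlapped.

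RNMT2, another methyltransferase of this family, had 8.02, 4.00, 6.90 and 4.23 CPM in dxo1-2, against 6.62, 8.32, 6.13 and 3.58 CPM in Col-0 (ratio 0.988, 95% interval 0.543 to 1.80). Its lowest mean was 2.90 ± 1.55 CPM in comp-mut (SD, n = 4), with 2 to 12 counts per library and a ratio to dxo1-2 of 0.514 (95% interval 0.269 to 0.982, adjusted p = 0.125). The log2 fold change was -0.96, and it was called without comp-mut replicate 3 (-1.49, adjusted p = 0.0456) and with the main axis of spread in the fit (-1.04, adjusted p = 0.0409). Values of RNMT2 are uncertain, because the gene overlaps AT3G52220 on the other strand, which had 1548 counts against 259 for RNMT2. RNMT1 and RNMT2 share 27.6% of 301 aligned positions.

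**Figure D3:**
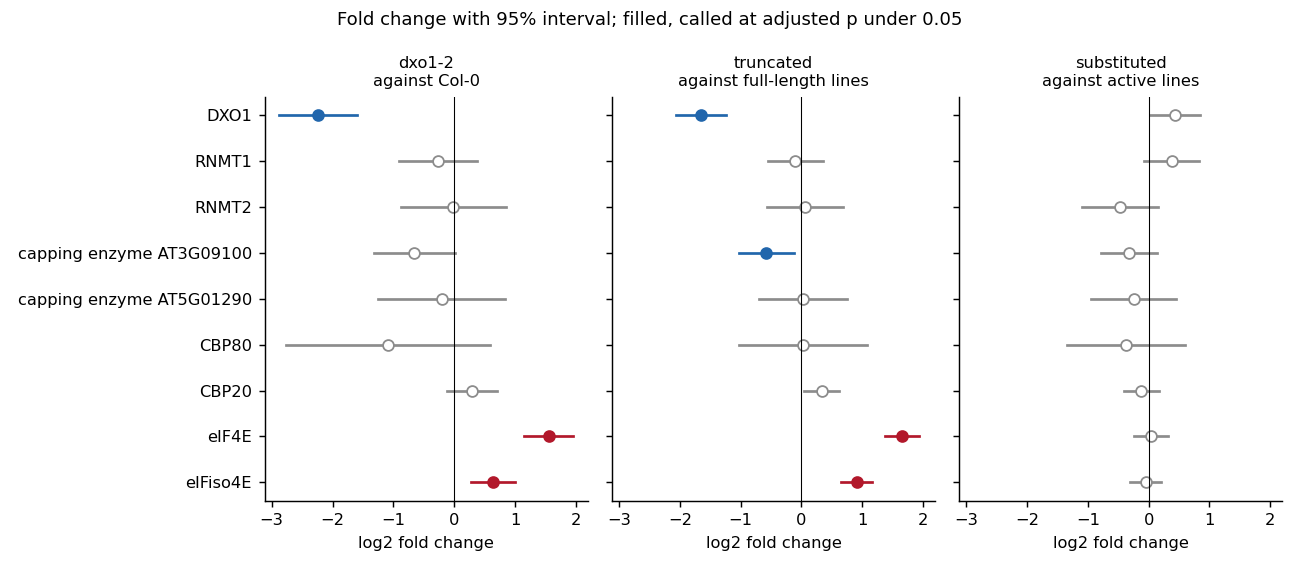
Log2 fold change with its 95% interval (horizontal axis) for the 9 genes in dxo1-2 against Col-0, truncated against full-length lines, and substituted against active lines; filled points are called and open points are not. DXO1 is at -2.23 and -1.65 in the left and middle panels, eIF4E at 1.55 and 1.66 and eIFiso4E at 0.64 and 0.91, and no gene is filled in the right panel.

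Among the partners of the nuclear cap, 5 of 6 listed genes were tested, and in dxo1-2 against Col-0 none was called (0 of 5 by edgeR, with 2 at an unadjusted p under 0.05, and 0 by DESeq2). In truncated against full-length lines 2 rose and 3 fell. Over all tested genes 22.6% were called in dxo1-2 against Col-0 and 43% in truncated against full-length lines. Their median log2 fold change was 0.11 in dxo1-2 against Col-0 and -0.44 in truncated against full-length lines, with 0.02 and -0.02 over all tested genes. SERRATE, a zinc-finger protein of microRNA processing, rose by 1.08 ± 0.18 (SE) on the log2 scale (adjusted p = 1.46e-05). It had 36.9, 27.1, 29.0 and 22.9 CPM in comp-wt-dN and 19.8, 25.3, 24.2 and 16.2 CPM in comp-mut-dN, against 11.4, 11.7, 10.6 and 15.6 CPM in comp-wt and 9.39, 9.53, 15.5 and 10.1 CPM in comp-mut. The truncated libraries were all above the full-length ones. SERRATE was lower than in dxo1-2 in comp-wt (-0.79, adjusted p = 0.0149) and in comp-mut (-0.89, adjusted p = 0.0125). Both calls ended without dxo1-2 replicate 1 (-0.59 with adjusted p = 0.0796, and -0.69 with adjusted p = 0.0673). That in comp-mut held in 9 of 10 other settings. SERRATE was higher than in Col-0 in comp-wt-dN (1.11, adjusted p = 0.00116) and in comp-mut-dN (0.68, adjusted p = 0.0436). The call in comp-mut-dN held in 3 of 10 other settings and ended without Col-0 replicate 1, 2 or 3 or comp-mut-dN replicate 1, 2 or 3 (0.53 to 0.73, adjusted p from 0.0560 to 0.168).

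The ALY proteins, export adaptors that couple capped transcripts to the export machinery, split in direction. In truncated against full-length lines ALY1 (-0.85, adjusted p = 1.83e-05), ALY3 (-0.44, adjusted p = 0.00210) and ALY4 (-1.06, adjusted p = 2.27e-05) fell and ALY2 rose (0.34, adjusted p = 0.0180). The ALY2 call ended without comp-mut replicate 3 (0.27, adjusted p = 0.0527). ALY1 was the one gene of both partner lists that differed between substituted and active lines (0.72 ± 0.14 SE, adjusted p = 0.00200). It averaged 148 ± 49 CPM in comp-mut and 74.9 ± 13.4 CPM in comp-wt, and 68.6 ± 9.2 CPM in comp-mut-dN and 49.4 ± 9.3 CPM in comp-wt-dN (SD, n = 4 each). In comp-mut ALY1 was above dxo1-2 by 1.07 (adjusted p = 0.000237) and above Col-0 by 0.74 (adjusted p = 0.0264). The call against Col-0 ended without any 1 of the 4 Col-0 libraries, comp-mut replicate 2 or comp-mut replicate 4 (0.52 to 0.75, adjusted p from 0.0611 to 0.157). In comp-wt-dN it was below Col-0 (-0.84, adjusted p = 0.00241). ALY4 was above dxo1-2 in comp-mut (0.99, adjusted p = 0.00507) and below Col-0 in comp-mut-dN (-0.97, adjusted p = 0.00649). ALY2 was below dxo1-2 in comp-wt (-0.49, adjusted p = 0.0247), a call that held in 8 of 10 other settings. The call ended without dxo1-2 replicate 2 or 3 or comp-wt replicate 4 (-0.46 to -0.40, adjusted p from 0.0647 to 0.0928). ALY2 was above Col-0 in comp-wt-dN (0.49, adjusted p = 0.0254), a call that held in 9 of 10 other settings. That call ended without Col-0 replicate 1, 3 or 4 or comp-wt-dN replicate 1 or 3 (0.44 to 0.50, adjusted p from 0.0509 to 0.0752).

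Of the partners in cap-dependent initiation, 14 of 15 were tested, and in dxo1-2 against Col-0 the single call was PAB2, a poly(A)-binding protein that contacts the initiation scaffold. It had 195, 149, 174 and 156 CPM in dxo1-2, against 252, 262, 236 and 266 CPM in Col-0, with no overlap (log2 fold change -0.59 ± 0.14 SE, adjusted p = 0.00247). PAB2 was below Col-0 in comp-wt-dN (-0.62, adjusted p = 0.00110) and comp-mut-dN (-0.60, adjusted p = 0.00156), and below the full-length lines in the truncated lines (-0.42, adjusted p = 0.000879). With scaling by total counts alone the call in comp-wt-dN ended (-0.36, adjusted p = 0.0624). Against dxo1-2 it was higher in comp-wt (0.41, adjusted p = 0.0254) and comp-mut (0.39, adjusted p = 0.0380). The call in comp-wt held in 9 of 10 other settings and ended with no filter (0.40, adjusted p = 0.111). The call in comp-mut held in 7 of 10 and ended with total counts alone (0.27, adjusted p = 0.184), with no filter (0.40, adjusted p = 0.130) and with only the groups compared (0.41, adjusted p = 0.0898). Those calls also ended without dxo1-2 replicate 2 or 4 or comp-wt replicate 2 or 4 (0.35 to 0.39, adjusted p from 0.0609 to 0.0969), and without dxo1-2 replicate 2, 3 or 4 or comp-mut replicate 2 or 4 (0.33 to 0.41, adjusted p from 0.0666 to 0.126).

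The median log2 fold change of the 14 was 0.03 in dxo1-2 against Col-0 and 0.17 in truncated against full-length lines. Of the 14, 1 was called in the first comparison and 4 in the second, where 22.6% and 43% of all tested genes were called. The scaffolds eIF4G and eIFiso4G1, which bind eIF4E and eIFiso4E, were called in 0 of 12 comparisons by edgeR and by DESeq2, with 0 at an unadjusted p under 0.05. eIFiso4G1 averaged 32.2 ± 7.6 CPM in dxo1-2 and 33.0 ± 4.1 CPM in Col-0, and eIF4G averaged 5.71 ± 0.63 CPM in dxo1-2 and 5.39 ± 3.30 CPM in Col-0 (SD, n = 4 each). A call of eIF4E was thus not matched by a call of its scaffold in any comparison. However, eIF4G had only 4 to 15 counts per library in Col-0 and 6 to 18 in dxo1-2, so a missing call does not show an unchanged level. The other eIFiso4G gene, eIFiso4G2, was above Col-0 in comp-wt-dN (1.26, adjusted p = 0.0271), a call that ended without Col-0 replicate 3 or 4 or comp-wt-dN replicate 1 or 2 (0.96 to 1.24, adjusted p from 0.0582 to 0.132). The RNA helicase gene eIF4A2 was above Col-0 in the same line (1.21, adjusted p = 0.00563). PAB4 was below Col-0 in comp-mut-dN (-0.63, adjusted p = 0.0217), a call that held in 9 of 10 other settings. The call ended without Col-0 replicate 2 or 4 or comp-mut-dN replicate 3 or 4 (-0.57 to -0.49, adjusted p from 0.0714 to 0.0885). The PAB4 mean of 45.3 CPM in comp-mut-dN was near those of comp-wt (46.5), comp-mut (46.9) and dxo1-2 (50.5). It was 65.7 CPM in comp-wt-dN and 70.8 CPM in Col-0.

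In truncated against full-length lines 3 further initiation genes rose with adjusted p near the threshold by edgeR, and DESeq2 called none of these 3. They were the eIF4E-like gene AT1G29550 (0.67, adjusted p = 0.0425), PAB8 (0.59, adjusted p = 0.0446) and CERES, a protein that binds eIF4E (0.76, adjusted p = 0.0413). With all libraries in, the call held in 6 of 9 other settings for AT1G29550, 4 of 10 for PAB8 and 5 of 9 for CERES. AT1G29550 lost its call without comp-wt replicate 1, 3 or 4, comp-mut replicate 1, 3 or 4, comp-wt-dN replicate 3 or 4, or comp-mut-dN replicate 3 or 4 (0.55 to 0.69, adjusted p up to 0.0968). PAB8 lost it without comp-wt replicate 1, 2 or 3, comp-mut replicate 1 or 4, comp-wt-dN replicate 1, 2 or 3, or comp-mut-dN replicate 1 or 2 (0.46 to 0.60, adjusted p up to 0.133). CERES lost it without comp-wt replicate 1 or 3, any comp-mut library, comp-wt-dN replicate 1, 2 or 3, or comp-mut-dN replicate 1 or 3 (0.67 to 0.80, adjusted p up to 0.0826). The cap-binding protein gene nCBP, eIF4A1, both eIF4B genes and CBE1 were called in 0 of 12 comparisons by both tools, with 4 comparisons at an unadjusted p under 0.05 for nCBP, 3 for eIF4B1, 1 for CBE1 and 0 for eIF4A1 and eIF4B2.

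**Figure D4:**
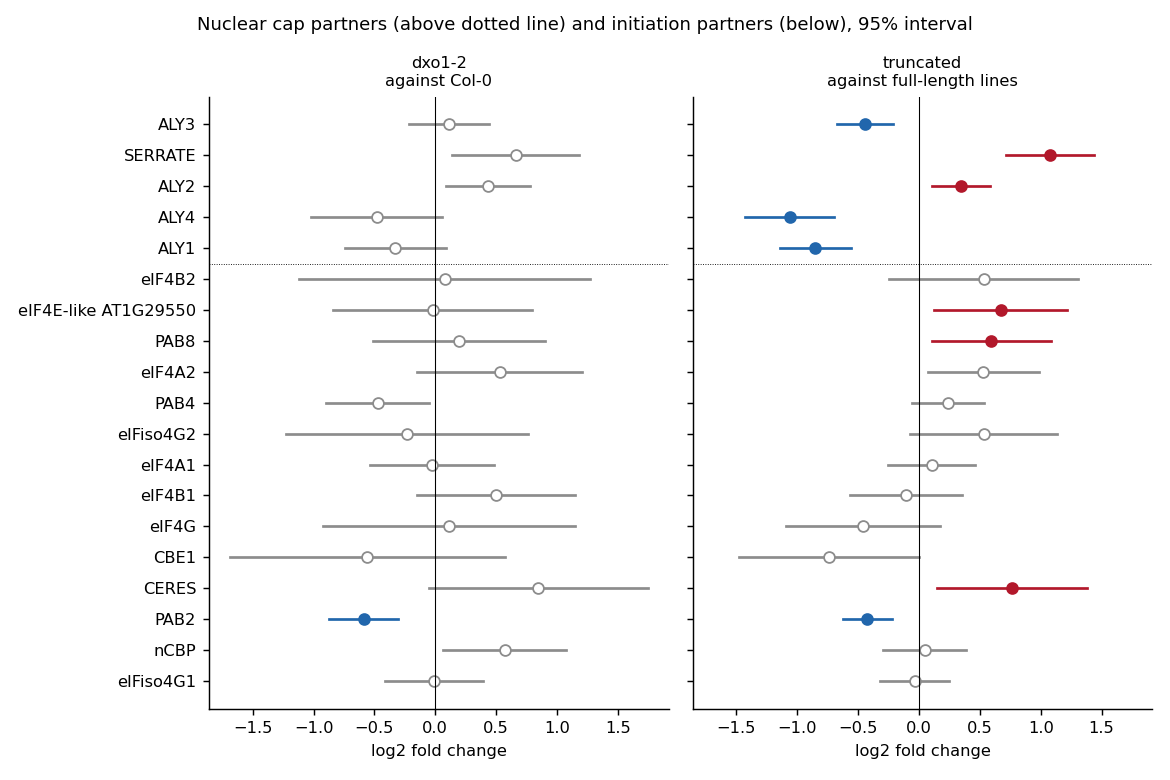
Log2 fold change with its 95% interval (horizontal axis) for the 5 tested partners of the nuclear cap, above the dotted line, and the 14 tested partners in initiation, below it, in dxo1-2 against Col-0 and in truncated against full-length lines; filled points are called. PAB2 is the one filled point on the left, at -0.59, and on the right 5 nuclear and 4 initiation partners are filled. Of all tested genes 22.6% were called in the comparison on the left and 43% in that on the right.

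The genes whose level over the 24 libraries was most like that of each of the 9 were listed by Pearson's r of log2 CPM among 8820 or 8821 genes averaging 20 or more counts, as a description only. Libraries of a genotype share its shift and all share the scaling, and no p is given. For DXO1 they were AT1G76590 (a PLATZ factor, r = 0.941), LHCA2 (0.934) and PSAG (0.925), both of photosystem I, PP2-A1 (0.932) and PP2C74 (0.921). For eIF4E it was AT1G57860, annotated as a translation protein of the SH3-like family (0.979), and for eIFiso4E AT3G22210, an uncharacterized protein (0.945). For AT3G09100 it was SNF7.1 (0.919), or AT1G04910 (0.922) with a prior count of 0.5 in place of 2. For RNMT1 it was AT2G16930, annotated as a ribosomal protein of the L27 family (0.820), for AT5G01290 AT3G01560 (0.791), for RNMT2 GAMMA CA3 (0.789), or PORA (0.790) with that prior count, for CBP20 AT4G39960 (0.718) and for CBP80 AT2G35050 (0.650).

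Within genotypes, the 9 genes gave pairwise correlations of both signs. Deviations from the genotype means over 24 libraries gave 36 pairwise values of r between -0.68 and 0.62 with a median of 0.03, and 3 of them were over 0.5. Those 3 pairs were RNMT1 with eIFiso4E (0.62), eIF4E with eIFiso4E (0.56) and RNMT2 with AT3G09100 (0.54). CBP80 had 1 to 39 counts per library and AT5G01290 had 1 to 23, and counting noise in such genes pulls r toward 0. The low median therefore does not show that the 9 genes vary apart. The main axis of spread within genotypes held 41.6% of the within-genotype variance over all tested genes. The deviations of eIF4E (r = -0.79), eIFiso4E (-0.65) and RNMT1 (-0.65) fell along it and those of AT3G09100 (0.74), RNMT2 (0.63) and AT5G01290 (0.58) rose along it, while DXO1 was at -0.27. The largest scores on this axis were those of comp-mut replicate 3 (2.19), comp-wt-dN replicate 4 (-1.91) and comp-wt-dN replicate 2 (1.69). With the axis as a covariate the calls of DXO1, eIF4E and eIFiso4E described above were kept. The axis has genotype means removed and so leaves differences between genotypes largely in place. Calls kept with it are therefore not separate support.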

How the data were processed

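The values are read counts per gene that the authors deposited, whole numbers in 1 table of 37184 loci by 24 libraries. Per the labels' protocols, 500 ng of RNA per sample was reverse transcribed with barcoded oligo(dT) primers carrying molecular identifiers. Per the submitters' processing notes, the tools were STAR 2.7.8a and DESeq2 and the build TAIR10. The counting tool, use of strand and treatment of molecular identifiers are not given in the sources used here.

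Counts were filtered by genotype (filterByExpr, leaving 13592 genes), scaled by TMM and tested in 1 fit of all 24 libraries with edgeR 4.0.16 (quasi-likelihood F-test, R 4.3.3), without the replicate number as a block. P-values were adjusted by Benjamini-Hochberg over all tested genes, and genes under 0.05 were called. Truncated against full-length and substituted against active lines are averages over the 4 lines. CPM are read counts over the TMM-adjusted library size. Scripts were tested on simulated data. DESeq2 1.42.0, other scalings, filters, covariates and left-out libraries were tried as alternatives. In 36 same-genotype pairs of libraries none were identical. Sequences and positions are from RefSeq TAIR10.1, with alignments by Biopython 1.88 and a search for near copies by blastn 2.17.0. Figures were drawn with matplotlib 3.10.9.

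The 9 genes and the partner and marker lists were chosen with earlier results of these data known. Named are all 9 genes, every tested partner that was called, and, by Pearson's r of log2 CPM (prior count 2), the 5 genes most like DXO1 and the 1 most like each other gene.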

Additional observations from a re-analysis of the deposited data

Results flagged for a closer look

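CBP80 had 12.9 CPM (39 counts) in comp-wt-dN replicate 2, where the other 3 libraries of that line had between 1.21 and 2.99 CPM. The gap to the nearest library was 0.847 of the range of the 4, above Dixon's 95% critical value for 4 values. This was 1 of 54 sets of 4 libraries examined over the 9 genes, and chance alone gives such a gap in about 5% of sets. The library also had one of the highest scores on the main axis of spread within genotypes (1.69), and the part of that axis in the CBP80 value was not tested.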

How the results depend on the processing

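The calls of DXO1 and eIF4E, and those of eIFiso4E other than in comp-wt-dN against Col-0, were kept under every other scaling, filter, tool, covariate and left-out library in which the gene was tested, and no call of the 9 genes reversed. Of the recomputed log2 fold changes of called genes, 364 stayed past the threshold and 21 did not. The 21 belong to CBP20 in comp-mut against dxo1-2, eIFiso4E in comp-wt-dN against Col-0 and AT3G09100 in truncated against full-length lines. CBP20 lost its call with DESeq2 (-0.59, adjusted p = 0.0655), with no filter and with only the groups compared, and eIFiso4E with no filter and with only the groups compared (0.53, adjusted p = 0.05003). When the main axis of spread entered the fit, the members called were 1 in comp-wt-dN against dxo1-2 (CBP80), 1 in substituted against active lines (AT3G09100) and 5 for any difference among genotypes, against 0, 0 and 3 without it. They were also 6 in comp-mut against dxo1-2 (4 without it), 5 in truncated against full-length lines (4), and 4 (3) in dxo1-2, comp-wt-dN and comp-mut-dN against Col-0 and in comp-wt against dxo1-2. The axis was computed from the same counts with genotype means removed, so it takes up spread within genotypes by construction. Calls kept or gained with it are therefore not separate support. What the axis stands for was not tested. Over all genes the axis raised the calls to 5327 in dxo1-2 against Col-0 (3072 without it), 7116 in comp-wt (4153), 5522 in comp-mut (3471), 3702 in comp-wt-dN (412) and 707 in comp-mut-dN (108) against dxo1-2. It raised them to 2245 in comp-wt (140), 2197 in comp-mut (728), 6012 in comp-wt-dN (3967) and 6054 in comp-mut-dN (3849) against Col-0, and to 5196 with substitution (1343), 1293 for the interaction (196) and 10243 for any difference (6448). With only the groups compared there were 177 calls in comp-wt-dN against dxo1-2, 1349 in comp-wt against Col-0 and 880 with substitution. DESeq2 gave 174 in comp-mut-dN against dxo1-2, 313 in comp-wt against Col-0 and 354 for the interaction. At least 10 counts in every library gave 3638 with truncation (5845) and 4160 for any difference. Left-out libraries moved the calls to between 183 and 1222 in comp-wt-dN against dxo1-2, the highest without comp-wt-dN replicate 4, and to between 728 and 3731 with substitution, the highest without comp-mut replicate 3. Scaling by total counts alone moved the median log2 fold change of all genes to between -0.18 and 0.35 across comparisons. A filter of at least 10 counts in every library left 4 of the 9 genes to test. Without comp-mut replicate 3 or comp-wt-dN replicate 2, 8 of the 9 passed the filter by genotype. With only the groups compared, between 6 and 8 of the 9 passed it.

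With each library left out in turn, the members called ran from 3 to 4 in comp-wt and in comp-mut against dxo1-2, from 2 to 3 in comp-wt-dN against Col-0, from 3 to 5 in truncated against full-length lines and from 3 to 4 for any difference, and did not move elsewhere. Libraries of different genotypes share only a replicate number in the labels. The 60 same-numbered pairs had correlations of their deviations from -0.54 to 0.61 (median 0.03), 23 of them over 0.1, and not every library, 11 of 24, correlated best with its own number, so a partial sharing by number was not settled. With the replicate number as a block the members called were 3 in dxo1-2 against Col-0, 4 in comp-wt and 4 in comp-mut against dxo1-2, 0 in each truncated line against dxo1-2, 4 in comp-mut-dN against Col-0 and 5 in truncated against full-length lines. The block gained AT3G09100 in comp-wt against dxo1-2 and in comp-mut-dN against Col-0, and CBP20 in truncated against full-length lines. Over all genes the block gave 631 calls in comp-wt-dN against dxo1-2, against 412 without it, and 219 in comp-wt against Col-0, against 140. Of 29 partner calls, 14 were kept in every setting and 0 changed direction. Low counts limit CBP80, RNMT2 and AT5G01290 most.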
